A study of Mus musculus with 11 samples.

Results

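The deletion of Srebf2 in regulatory T cells (Tregs) was compared between visceral adipose tissue (VAT) and spleen, gene by gene, as the difference between the KO effect in VAT and the KO effect in spleen. Tregs are CD4 T cells defined by the transcription factor Foxp3, and they hold immune responses in check. All mice were males aged 25 weeks that carried a YFP-Cre recombinase driven by Foxp3, so that recombination was directed to cells that express Foxp3. The Srebf2 alleles were WT/WT (called WT here) or flox/flox (called KO here), and live CD3+ CD4+ Foxp3+ cells were sorted from either tissue for bulk RNA sequencing. The WT mice also carried the Cre. Of the 11 samples, 10 entered every fit: 3 of VAT WT, 3 of VAT KO, 2 of spleen WT and 2 of spleen KO, where the spleen samples are replicates 2 and 3. Spleen KO replicate 1 was not analysed here. Levels are RPKM (read numbers divided by the length of the gene and the size of the library), and 10429 of 10992 genes reached 1 RPKM in at least 2 libraries and were tested. All effects are differences of mean log2(RPKM + 1), a scale that understates changes of low genes. The interaction is the VAT effect minus the spleen effect, so a positive value means that KO stood higher, relative to WT, in VAT than in spleen. Errors of effects are standard errors from limma, and adjusted p-values are limma's with Benjamini-Hochberg adjustment over all tested genes.

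SREBP2, the protein that Srebf2 encodes, is a membrane-bound transcription factor that is held in the endoplasmic reticulum while sterols are plentiful. When sterols run low it is cut free in the Golgi, enters the nucleus and drives the genes of cholesterol synthesis and sterol uptake. Tregs of visceral fat are known for a programme of their own, with the IL-33 receptor, PPARg and chemokine receptors of inflamed tissue, while spleen holds many Tregs with genes of circulating lymphocytes such as Tcf7 and Ccr7.

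Summed RPKM, which are already scaled for library size, ran from 185319 to 210779, with 9551 to 9774 genes at 1 RPKM or more in each library. Read depth was unknown. Spleen WT replicate 2 stood apart: its correlation across genes with the other spleen WT library was 0.932, against 0.968 to 0.974 between replicates in the other groups. It correlated with the spleen KO libraries at 0.9286 and 0.9265. Spleen WT replicate 3 did so at 0.9776 and 0.9697, against 0.9711 between the 2 spleen KO libraries, and was thus about as near to them as they were to each other. The spread per gene, as a median SD in log2 units, was 0.279 for spleen WT against 0.148 for spleen KO, and in VAT 0.189 for WT and 0.187 for KO. Many, but not all, results that moved with either spleen WT library are therefore also given without it. In that case 1 spleen WT library remains and is assumed to vary like the other groups. Whether libraries of 1 group stem from different animals is not in the labels, and the p-values therefore reflect a spread that may be technical. All 8 Treg markers examined were present in all 10 libraries.

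No gene passed an adjusted p under 0.05 in limma for the interaction, a share of 0% of 10429, and the smallest adjusted p was 0.308, shared by 11 genes. An unadjusted p under 0.05 was reached by 738 genes, which is 7.08% of those tested. Of these, 448 were positive (4.30%) and 290 negative (2.78%). The interaction was above 0 for 55.1% of all genes, with a median of 0.05. That median was 0.007 after quantile normalization and -0.011 after scaling by median ratios. Precision was limited: the median SE of the interaction was 0.332, and 373 genes had an estimate of at least 1 in size. In simulated tables of 10429 genes with 200 changed, the same fit recovered 26.1% of 2-fold and 83.6% of 4-fold interactions. The changed genes were drawn from those with a mean level above about 5 RPKM, and only VAT KO was changed. Noise was normal and independent between libraries, with the same spread in all 4 groups. The unequal spread of the real groups and genes at lower levels were not covered, so these rates are not the power of these data.

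The count of called genes turned on spleen WT replicate 3. Without it, 514 genes passed, 218 positive and 296 negative, whereas without spleen WT replicate 2 none passed. The remaining spleen WT library in the first case is the one that stood apart. Without spleen KO replicate 2, 2 genes passed, the heat shock genes Hspa1a and Hspa1b. In each of the other 7 cases that left out a single library, 0 genes passed.

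Within a tissue, the same fit called 44 genes between KO and WT in VAT (0.422%), 32 higher and 12 lower in KO, and 0 in spleen (0%), where 873 genes had an unadjusted p under 0.05. The VAT calls rested on few libraries: without VAT WT replicate 1 or without VAT KO replicate 3, only Srebf2 and Sqle remained among them, and 5 genes passed without VAT KO replicate 2. Calls in VAT of other genes named below carry that limit. Without spleen WT replicate 3, 1395 genes were called in spleen, and 5 without spleen WT replicate 2. Across all tested genes, the VAT effect and the spleen effect had a Pearson correlation of 0.092 and a Spearman correlation of 0.071, a description over genes, which are not independent replicates. The 12 genes that fell in VAT had a median VAT effect of -1.69 and a median spleen effect of -1.17, and 10 of them stood below 0 in spleen. The 32 genes that rose in VAT had a median effect of 1.22 there and of 0.12 in spleen, where 21 stood above 0 and 11 below. Of all tested genes, 46.8% stood above 0 in spleen. Both sets were picked for their VAT effect, and that choice alone enlarges the VAT medians. The gap between the medians therefore does not measure tissue dependence.

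**Figure D1:**
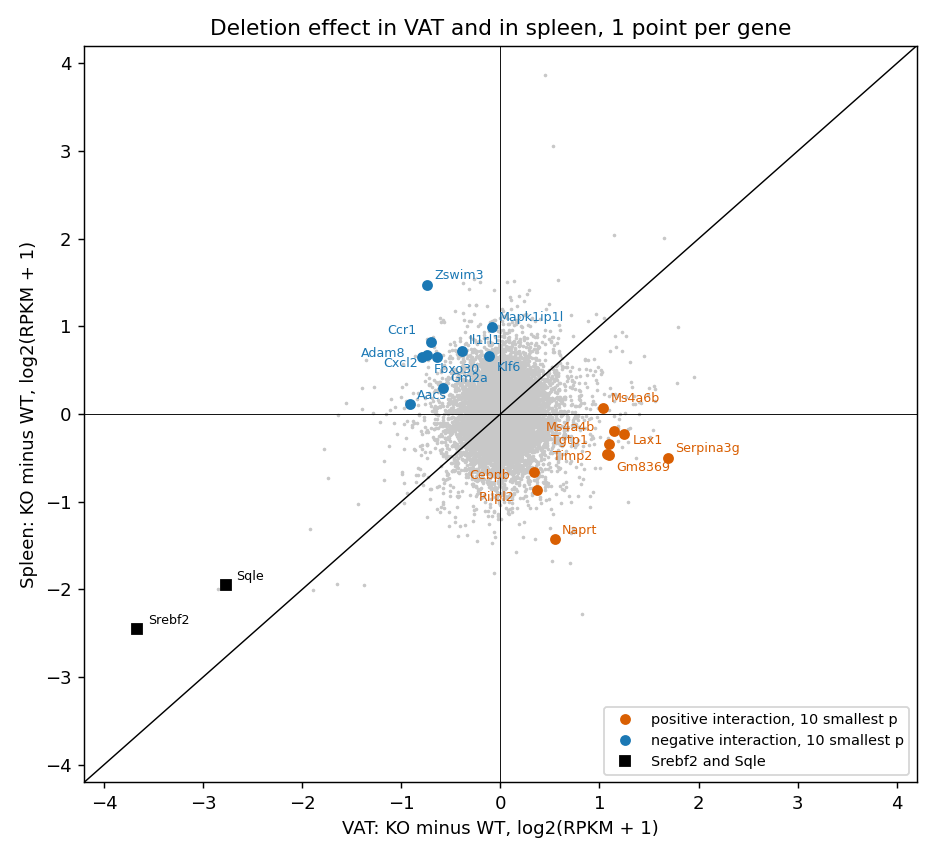
KO minus WT in VAT (x axis) against KO minus WT in spleen (y axis), both as differences of mean log2(RPKM + 1), with 1 grey point per tested gene (10429). The diagonal marks equal effects, orange and blue points mark the 10 genes of smallest p with a positive or a negative interaction and a group mean of at least 5 RPKM, and black squares mark Srebf2 and Sqle, which lie in the lower left with lower levels in KO in both tissues.

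Srebf2 itself was lower in KO in both tissues. In VAT it stood at 16.6, 15.6 and 30.5 RPKM in WT and at 0.263, 0.600 and 1.23 in KO, and in spleen at 10.5 and 23.2 in WT and at 2.59 and 1.59 in KO. No KO library reached any WT library. The effect was -3.67 ± 0.33 in VAT (adjusted p = 0.00081) and -2.45 ± 0.40 in spleen (adjusted p = 0.244), and the interaction was -1.21 ± 0.52 (adjusted p = 0.692). It was -0.68 in the absence of spleen WT replicate 2 and -1.75 in the absence of replicate 3. Both spleen KO libraries stood above all VAT KO libraries, but the difference between the effects did not pass the test. Foxp3, the gene of the sort and of the Cre, had effects of -0.01 ± 0.16 in VAT and 0.09 ± 0.19 in spleen, with an interaction of -0.10 ± 0.25.

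Genes of cholesterol synthesis and uptake, the known targets of SREBP2, stood lower in KO in both tissues for the most part. All 10 genes of the steps from acetoacetyl-CoA to squalene epoxide had a VAT effect below 0 and 8 of 10 a spleen effect below 0, with medians of -0.67 and -0.53 against 0.02 and -0.03 over all genes, of which 54.5% stood higher in KO in VAT and 46.8% in spleen. Their median interaction was -0.31, with 8 of 10 below 0, and it lay at -0.05 when spleen WT replicate 2 was left out and at -0.56 when replicate 3 was. In 6 of these 10 genes the KO libraries lay wholly below the WT libraries in both tissues, against 1.39% of all genes. Sqle, the squalene epoxidase, fell in VAT by 2.77 ± 0.31 (adjusted p = 0.00501), with a spleen effect of -1.95 ± 0.38 and an interaction of -0.82 ± 0.49, which was -0.14 with spleen WT replicate 2 left out and -1.50 with replicate 3 left out. Idi1, the isomerase of the isoprenoid units, had the smallest interaction p of the list: it stood at 5.24, 4.56 and 8.44 RPKM in VAT WT, 1.40, 0.830 and 0.994 in VAT KO, 2.80 and 4.998 in spleen WT, and 1.39 and 2.47 in spleen KO. KO lay below WT without overlap in both tissues, by -1.74 ± 0.27 in VAT (adjusted p = 0.0149) and -0.73 ± 0.33 in spleen. Fdft1, the squalene synthase, had the opposite order, with -0.52 ± 0.22 in VAT and -1.12 ± 0.27 in spleen.

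The later steps, from lanosterol to cholesterol, had a median VAT effect of -0.66 and a median spleen effect of -0.59 over 10 genes, and a median interaction of -0.09. That median was 0.098 with spleen WT replicate 2 left out and -0.229 with replicate 3 left out, so its sign was not stable. Cyp51, which demethylates lanosterol, stood at -1.38 ± 0.31 in VAT and -1.95 ± 0.38 in spleen. Hsd17b7, a reductase of the C-4 demethylation complex, had the largest gap of the list: it stood at 6.92, 5.49 and 5.92 RPKM in VAT WT against 3.92, 1.19 and 0.977 in VAT KO, and at 0.434 and 2.51 in spleen WT against 2.45 and 2.45 in spleen KO. All VAT KO libraries were below VAT WT, while the spleen groups overlapped, and the interaction was -1.98 ± 0.58. It was -1.33 without spleen WT replicate 2, the low library, and -2.62 without replicate 3. Among 14 genes of SREBP control and sterol uptake the median interaction was 0.02. Tmem97, the sigma-2 receptor, a sterol-binding protein of the endoplasmic reticulum, had -1.22 ± 0.32 in VAT and -0.09 ± 0.40 in spleen, a gap of -1.13 that was -0.33 without spleen WT replicate 2. Insig2, which retains the SREBP complex in the endoplasmic reticulum, had 0.14 ± 0.18 in VAT and -0.46 ± 0.22 in spleen, with groups that did not overlap in either tissue.

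Aacs is the cytosolic synthetase that activates acetoacetate for lipid synthesis (Entrez 78894, chromosome 5, 125475873 to 125517405 in mm10). It was among the 10 genes of smallest p with a negative interaction and a group mean of at least 5 RPKM. It stood at 17.02, 20.1 and 21.2 RPKM in VAT WT, at 11.3, 8.95 and 9.34 in VAT KO, at 19.2 and 22.6 in spleen WT and at 22.5 and 22.7 in spleen KO. Only the VAT KO libraries were low, and they overlapped with no other group. Aacs fell in VAT by 0.91 ± 0.15 (adjusted p = 0.0259), had a spleen effect of 0.12 ± 0.19 and an interaction of -1.03 ± 0.24 (adjusted p = 0.53). Without spleen WT replicate 2 Aacs had an interaction of -0.92, and without replicate 3 one of -1.14. Hmgcs1, the synthase that makes HMG-CoA, is set beside it; it was chosen for its promoter after its values were seen. Hmgcs1 stood at 9.22, 8.45 and 14.5 RPKM in VAT WT against 3.65, 2.83 and 3.22 in VAT KO, and at 5.76 and 10.5 in spleen WT against 3.88 and 2.86 in spleen KO. It was lower in KO without overlap in both tissues, by -1.44 ± 0.25 in VAT (adjusted p = 0.0305) and -1.02 ± 0.30 in spleen.

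The promoters of these neighbours in the pathway were taken from RefSeq on GRCm38.p6, as 250 bases before to 50 after the gene start. They are shown because SREBP2 binds sterol regulatory elements near gene starts. The letters TCACNCCAC, a common core of that element, were searched on both strands and are in capitals where found. Hmgcs1 (chr13:119690101-119690400, plus strand) held 1 match at bases 114 to 122, and Aacs (chr5:125475623-125475922, plus strand) held none.
Hmgcs1: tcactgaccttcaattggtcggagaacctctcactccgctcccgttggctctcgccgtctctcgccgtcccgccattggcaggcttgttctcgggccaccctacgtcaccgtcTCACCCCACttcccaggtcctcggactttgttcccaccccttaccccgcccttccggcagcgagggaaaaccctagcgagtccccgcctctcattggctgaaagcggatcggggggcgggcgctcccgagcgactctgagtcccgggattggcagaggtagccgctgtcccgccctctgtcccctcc
Aacs: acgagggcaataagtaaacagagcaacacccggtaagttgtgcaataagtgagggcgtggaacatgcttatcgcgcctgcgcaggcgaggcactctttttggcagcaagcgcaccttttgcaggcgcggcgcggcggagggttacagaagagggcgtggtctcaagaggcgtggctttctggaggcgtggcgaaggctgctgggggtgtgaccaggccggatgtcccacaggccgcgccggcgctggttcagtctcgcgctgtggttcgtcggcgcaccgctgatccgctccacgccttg
The letters were found in 408 of 32851 promoters of that length (1.24%), in 126 of 10693 promoters of tested genes (1.18%) and in 1 of 33 promoters of 25 of the 34 sterol genes listed (3.03%). A match is a description of these letters, and its absence in this window says nothing of binding elsewhere. Because Hmgcs1 was picked for its promoter, the pair cannot show whether the letters go with an effect in either tissue, which was not tested.

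Sterol handling beyond synthesis showed gaps in either direction. Of 7 genes of sterol efflux and storage, 6 had an interaction below 0 (median -0.28), with 1 at an unadjusted p under 0.05, against 7.08% of all genes. The median was -0.115, with 3 of 7 above 0, in the absence of spleen WT replicate 2, and -0.53 in the absence of replicate 3. The single gene, Soat2, an acyltransferase that stores sterol as ester, had the positive sign, at 1.46 ± 0.59 (2.27 and 0.65 in these cases), from low levels of 0.165 to 3.13 RPKM over all libraries. Fatty acid synthesis and desaturation had a median VAT effect of -0.40 and a median spleen effect of -0.10 over 12 genes, with 9 of 12 interactions below 0. The median interaction of -0.22 lay at -0.04 when spleen WT replicate 2 was left out and at -0.53 when replicate 3 was. Elovl5, an elongase of polyunsaturated fatty acids, had the smallest p of the list: VAT values overlapped between 70.3 and 88.2 RPKM, while spleen WT stood at 33.5 and 68.6 and spleen KO at 76.5 and 86.0. Its interaction was -0.83 ± 0.33, with spleen WT replicate 2 as the low library, and -0.32 without it. Acss2, which makes acetyl-CoA from acetate, had -0.44 ± 0.17 in VAT and 0.11 ± 0.21 in spleen.

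The genes named by smallest p for a positive interaction also had a group mean of at least 5 RPKM. In most cases they had high levels in spleen and stood higher in VAT KO than in VAT WT. Of the 10 named by p, 6 rose in VAT (Serpina3g, Ms4a4b, Ms4a6b, Timp2, Lax1 and Tgtp1), and 9 had a spleen effect below 0, none of them past the test. The VAT KO means of these 6 lay between the VAT WT means and the spleen means. In bulk samples, more cells of a type and more RNA per cell cannot be told apart.

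Timp2, an inhibitor of matrix metalloproteinases, had the smallest interaction p of all genes (Entrez 21858; chromosome 11, 118301061 to 118355411). It stood at 6.66, 6.74 and 7.76 RPKM in VAT WT and at 12.6, 18.4 and 17.6 in VAT KO, against 40.8 and 49.0 in spleen WT and 33.6 and 31.0 in spleen KO. KO lay wholly above WT in VAT and wholly below it in spleen. Timp2 rose in VAT by 1.08 ± 0.17 (adjusted p = 0.0149), had a spleen effect of -0.46 ± 0.20, and had an interaction of 1.54 ± 0.26 (adjusted p = 0.308). Serpina3g, a protease inhibitor of activated and memory T cells (Entrez 20715; chromosome 12, 104236147 to 104241939), had an interaction of 2.19 ± 0.38, the largest of the 10. Its levels were 6.99, 12.8 and 10.8 RPKM in VAT WT, 25.6, 38.5 and 40.9 in VAT KO, 79.1 and 92.3 in spleen WT, and 75.5 and 47.9 in spleen KO. It rose in VAT by 1.70 ± 0.24 (adjusted p = 0.011), and its spleen effect was -0.50 ± 0.29. Serpina3g belongs to a cluster of near-identical genes, so reads may have been split among copies.

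Lax1, a membrane adaptor that dampens antigen receptor signals (Entrez 240754; chromosome 1, 133679017 to 133693022), stood at 6.93, 11.8 and 10.6 RPKM in VAT WT and 19.9, 26.5 and 26.2 in VAT KO. In spleen it stood at 71.9 and 72.7 in WT and 66.4 and 57.6 in KO. The genotypes did not overlap in either tissue, and the interaction was 1.47 ± 0.29. Ms4a4b and Ms4a6b, 4-pass membrane proteins of T cells encoded close together on chromosome 19 (11443558 to 11463549 and 11518559 to 11530403), gave a like picture in VAT. Ms4a4b rose there by 1.15 ± 0.16, from 25.8, 23.5 and 30.7 to 49.9, 64.0 and 67.3 RPKM (adjusted p = 0.011), with a spleen effect of -0.20 ± 0.20. Ms4a6b rose there by 1.04 ± 0.13 (adjusted p = 0.00871), with 0.08 ± 0.16 in spleen, where the genotypes overlapped between 117 and 137 RPKM. Tgtp1, an interferon-induced GTPase with a near-identical neighbour, Tgtp2, rose in VAT by 1.10 ± 0.20 (adjusted p = 0.0403) and stood at -0.34 ± 0.24 in spleen. Gm8369, a predicted gene, had an interaction of 1.56 ± 0.35.

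Of the 10, 3 owed their interaction mostly to spleen. Rilpl2, an adaptor of Rab GTPases, stood at 81.0 and 56.0 RPKM in spleen WT and at 38.3 and 34.6 in spleen KO, against 41.1, 33.8 and 37.9 in VAT WT and 48.2, 48.4 and 49.3 in VAT KO. The groups were apart in both tissues in opposite directions, with a spleen effect of -0.87 ± 0.18 (adjusted p = 0.306), a VAT effect of 0.37 ± 0.15 and an interaction of 1.24 ± 0.24. Naprt, which makes NAD from nicotinic acid, stood at 7.45 and 6.47 RPKM in spleen WT and at 1.41 and 2.63 in spleen KO, with 0.749 to 2.11 in VAT WT and 2.37 to 2.58 in VAT KO. Its spleen effect was -1.43 ± 0.30 and its interaction 1.97 ± 0.39. Cebpb, a transcription factor that VAT Tregs held at higher levels, had 26.1 and 21.5 RPKM in spleen WT against 14.2 and 15.1 in spleen KO, and an interaction of 1.00 ± 0.23. All 10 interactions of this direction stayed positive, from 0.86 to 2.30 without spleen WT replicate 2 and from 1.04 to 2.08 without replicate 3. The genes were picked by p from all 10 libraries, so this is not independent support.

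**Figure D2:**
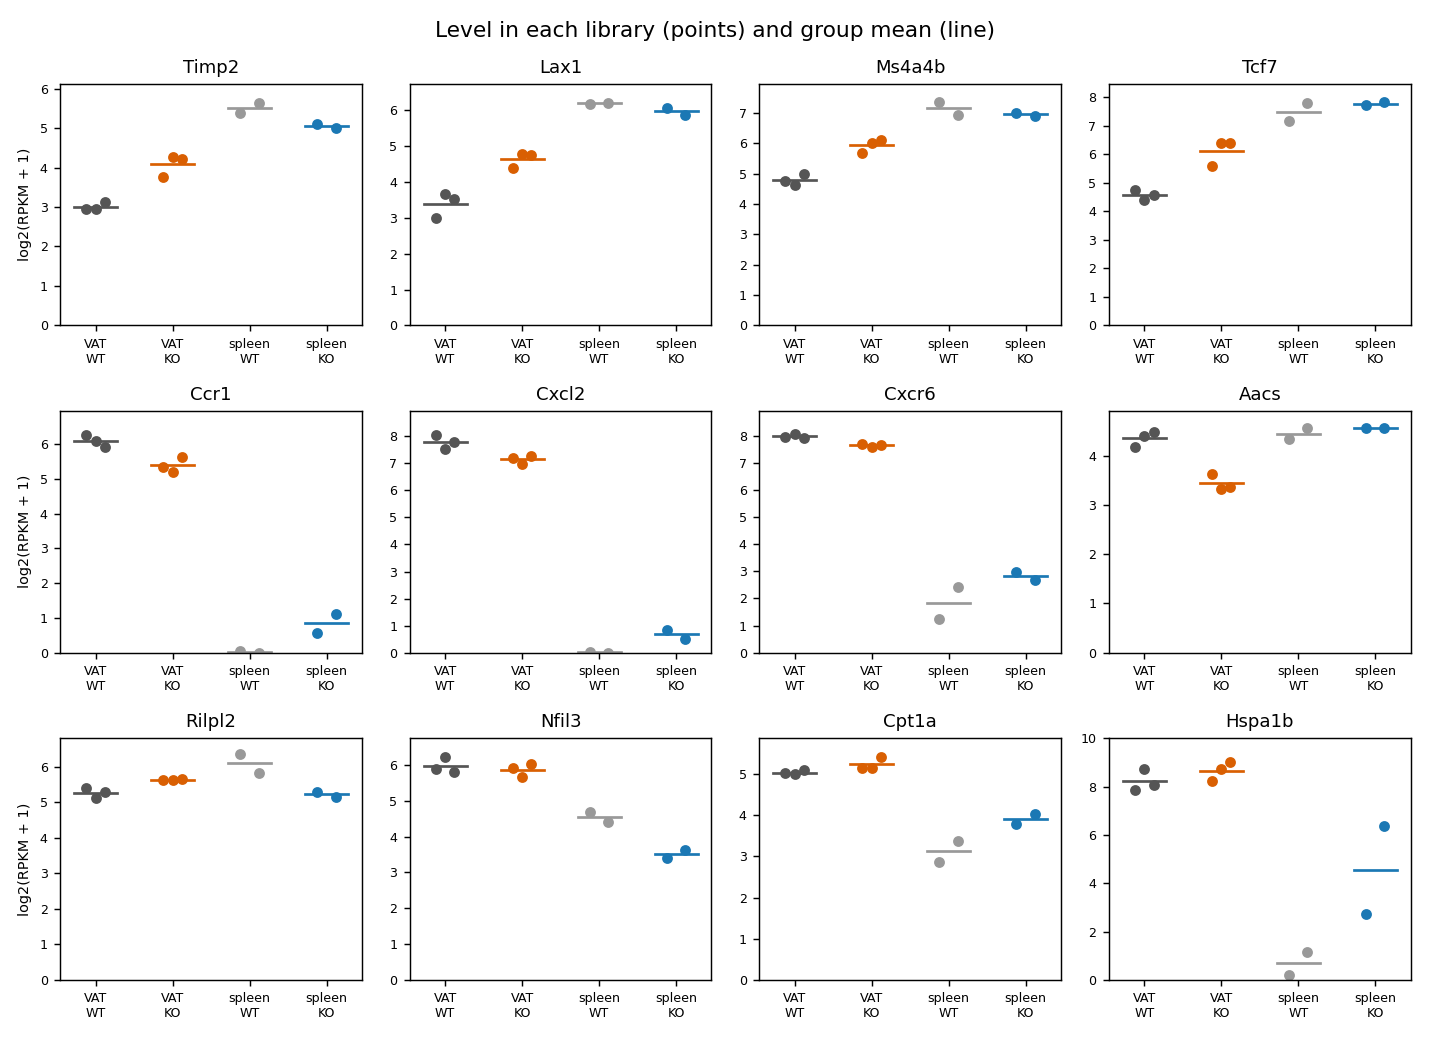
Level of 12 genes in each library as log2(RPKM + 1) on axes that start at 0, with 1 point per library and a line at each group mean. In VAT the KO points lie above WT for Timp2, Lax1, Ms4a4b and Tcf7 and below WT for Ccr1, Cxcl2, Cxcr6 and Aacs, while Hspa1b in spleen KO is split between 5.57 and 82.3 RPKM.

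The genes named by smallest p for a negative interaction had a group mean of at least 5 RPKM. They were led by genes that VAT Tregs hold at high levels and spleen Tregs at low ones. Below that mean, Ccpg1os (-1.70) and Tmem35a (-1.63) had unadjusted limma p of 0.00024 and 0.00030. Ccpg1os differed between VAT and spleen in WT by only -0.11 log2 units. Ccr1, a receptor of inflammatory chemokines (Entrez 12768; chromosome 9, 123962126 to 123968692), stood at 75.7, 67.9 and 59.8 RPKM in VAT WT and at 39.9, 35.7 and 48.5 in VAT KO. In spleen it stood at 0.026 RPKM and listed at 0 in WT, and at 0.480 and 1.18 in KO. KO lay below WT in VAT and above it in spleen, without overlap, and the interaction was -1.53 ± 0.30. Cxcl2, a chemokine that draws neutrophils (Entrez 20310; chromosome 5, 90903899 to 90905938), had 261, 183 and 218 RPKM in VAT WT against 145, 124 and 155 in VAT KO. Its spleen values were 0.024 and listed at 0 in WT, and 0.800 and 0.413 in KO, and its interaction was -1.29 ± 0.26. With a pseudocount of 0.1, Ccr1 and Cxcl2 were the only genes that passed for the interaction, at -3.66 (adjusted p = 0.0152) and -3.25 (adjusted p = 0.0121). That scale gives more weight to the spleen values near 0, and no fold is given against libraries listed at 0.

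Il1rl1, the IL-33 receptor ST2 that marks VAT Tregs (Entrez 17082; chromosome 1, 40404864 to 40465418), stood at 158, 172 and 216 RPKM in VAT WT, 155, 144 and 117 in VAT KO, 2.66 and 4.67 in spleen WT and 6.32 and 6.72 in spleen KO. The genotypes were apart in both tissues in opposite directions, with a VAT effect of -0.39 ± 0.18, a spleen effect of 0.72 ± 0.23 and an interaction of -1.11 ± 0.29. Adam8, a membrane metalloprotease, had 95.8, 86.2 and 81.5 RPKM in VAT WT and 53.4, 50.9 and 47.0 in VAT KO. Its spleen values were 1.08 and 3.52 in WT and 4.41 and 3.31 in KO, so that WT replicate 2 was the low one, and the interaction of -1.44 ± 0.37 was -0.88 without that library. Gm2a, a lysosomal cofactor for ganglioside breakdown, had a VAT effect of -0.58 ± 0.12, from 237, 219 and 202 to 151, 139 and 149 RPKM, and a spleen effect of 0.30 ± 0.14, from 50.9 and 57.7 to 62.8 and 71.3.

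The others of this direction moved mostly in spleen or stood at low levels. Klf6, a zinc finger factor (Entrez 23849; chromosome 13, 5861489 to 5870393), had 37.2 and 38.4 RPKM in spleen WT against 53.4 and 68.0 in spleen KO, and 221 to 239 in VAT WT against 209 to 217 in VAT KO. Its spleen effect was 0.66 ± 0.14 (adjusted p = 0.346) and its interaction -0.77 ± 0.19. Mapk1ip1l had 4.13 and 5.16 RPKM in spleen WT against 9.44 and 11.03 in spleen KO, with overlapping VAT groups between 8.16 and 10.6. Zswim3 had the largest estimate, -2.21 ± 0.57, with 0.752 and 5.52 RPKM in the spleen WT libraries, which differed from each other by more than the VAT genotypes did. Without spleen WT replicate 2 it was -1.27. Fbxo30, an F-box protein of ubiquitin ligases, had an interaction of -1.41 ± 0.37 at 0.457 to 10.1 RPKM. All 10 interactions of this direction stayed negative, from -1.67 to -0.75 without spleen WT replicate 2 and from -3.16 to -0.795 without replicate 3. These genes, too, were picked by p from all 10 libraries.

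Genes whose groups did not overlap in either tissue and moved in opposite directions numbered 140 with KO higher in VAT and lower in spleen (1.34% of tested genes) and 88 with the reverse (0.844%). Genes apart in both tissues in the same direction numbered 175 for higher (1.68%) and 145 for lower (1.39%). With 3 against 3 and 2 against 2 libraries, some genes stand apart in both tissues without any effect of genotype. Their share was not estimated, so these counts, and the genes named from them, do not by themselves show a response to genotype. Scaling by median ratios gave 105 and 120 for the opposite directions, so their order was not stable to scaling. With only genes that averaged 5 RPKM or more, the counts were 80 and 56. By the smaller of the 2 changes, the leading genes with VAT up and spleen down were Apol10b, Calhm6, 1700030K09Rik, Coa7, Mirt1 and 2610008E11Rik, with interactions from 1.22 to 2.29. Calhm6, of a family of calcium-regulated channels, had 5.12, 5.14 and 2.74 RPKM in VAT WT and 9.67, 7.91 and 8.75 in VAT KO, against 91.7 and 34.0 in spleen WT and 30.3 and 27.4 in spleen KO. The groups were apart, but spleen WT replicate 2 alone stood far above the rest, and the interaction of 1.84 ± 0.48 was 1.14 without it. Coa7, an assembly factor of cytochrome c oxidase, likewise had 9.44 and 3.71 RPKM in spleen WT against 2.27 and 2.75 in spleen KO. 2610008E11Rik was steadier, with 6.04, 7.84 and 9.03 RPKM in VAT WT, 12.1, 10.2 and 13.5 in VAT KO, 8.53 and 9.65 in spleen WT and 5.05 and 6.02 in spleen KO. Its interaction was 1.22 ± 0.29, and 1.30 without spleen WT replicate 2.

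In the reverse direction the leading genes were Zswim3, Ccr1, Fbxo30, Cxcl2, Ptpn9 and Il9r. Ptpn9, a tyrosine phosphatase, had 60.4, 50.8 and 54.2 RPKM in VAT WT against 43.1, 33.4 and 33.9 in VAT KO, and 2.36 and 8.79 in spleen WT against 10.2 and 11.9 in spleen KO. Its interaction of -1.64 ± 0.46 was -0.87 without spleen WT replicate 2. Il9r, a subunit of the IL-9 receptor, had 26.9, 25.2 and 21.4 RPKM in VAT WT against 18.4, 18.1 and 14.4 in VAT KO, and 1.69 and 2.78 in spleen WT against 3.43 and 4.21 in spleen KO. It was thus at a higher level in VAT in both genotypes, with a gap between tissues of 2.99 log2 units in WT and 1.90 in KO.

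Families of genes showed where the difference between tissues was spread over many members. Lists are described by counts and medians beside those of all tested genes, of which 55.1% had an interaction above 0, and no test was run over a list. No member of any list passed the interaction test.

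The list of the adipose Treg programme had a median interaction of -0.14 over 26 genes, with 15 below 0, but of -0.01 with 13 of 26 on either side of 0 when spleen WT replicate 2 was left out. An unadjusted p under 0.05 was reached by 4 members with a negative sign and by 4 with a positive one, against 2.78% and 4.30% of all genes. Its median level difference between VAT and spleen was 2.85 log2 units in WT and 2.71 in KO. The median effect over members was -0.245 in VAT and 0.01 in spleen. The 4 members Ccr1, Cxcl2, Il1rl1 and Cxcr6 were lower in VAT KO and higher in spleen KO without overlap, against 0.844% of all genes. Cxcr6, a chemokine receptor of tissue-resident T cells (Entrez 80901; chromosome 9, 123806477 to 123811754), had 249, 271 and 241 RPKM in VAT WT against 206, 193 and 204 in VAT KO, and 1.38 and 4.33 in spleen WT against 6.96 and 5.39 in spleen KO. Its interaction of -1.34 ± 0.36 was -0.75 without spleen WT replicate 2. The list was not uniform, since 11 of 26 members had an interaction above 0. Nfil3, a basic leucine zipper factor, had a spleen effect of -1.03 ± 0.20, from 24.7 and 20.4 to 9.65 and 11.4 RPKM, with VAT groups that overlapped between 49.7 and 74.2. Bhlhe40, a transcription factor of activated and resident T cells, had 0.64 ± 0.22 in VAT and -0.18 ± 0.27 in spleen.

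Naive and lymphoid homing genes had a median interaction of 0.51 over 17 genes, with 14 of 17 above 0. Their median effect was 0.68 in VAT, where all 17 stood above 0, and 0.23 in spleen, where 14 did. The median level difference between VAT and spleen was -2.40 in WT and -1.41 in KO. An unadjusted p under 0.05 with the positive sign was reached by 5 of 17 genes, against 4.30% of all genes, and with the negative sign by 0. Tcf7, which encodes the factor TCF1 of naive and memory T cells, rose in VAT by 1.56 ± 0.22 (adjusted p = 0.011), from 25.6, 19.8 and 22.5 to 46.6, 82.5 and 82.3 RPKM. In spleen it stood at 143 and 220 in WT and 208 and 224 in KO, an effect of 0.28 ± 0.27, so that the spleen groups overlapped and the interaction was 1.27 ± 0.35. Txk, a Tec family kinase, rose in VAT by 1.42 ± 0.22 (adjusted p = 0.0179) and had 0.13 ± 0.27 in spleen. S1pr1, the receptor that guides exit from lymphoid organs, had 0.55 ± 0.16 in VAT and -0.07 ± 0.19 in spleen. Ccr7, the homing receptor of lymph nodes, varied more between libraries, with 19.2, 38.3 and 9.47 RPKM in VAT WT and 28.4, 88.0 and 76.7 in VAT KO, which overlapped, and 205 to 293 in spleen. Over the list, VAT KO replicate 1 was the KO library nearest to WT, with a median of 3.61 against 4.11 and 4.16 in the other VAT KO libraries and 2.75 to 3.14 in VAT WT. The median interaction lay at 0.43 when spleen WT replicate 2 was left out and at 0.32 when replicate 3 was.

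Core Treg genes had a median interaction of 0.33, with 15 of 20 above 0 and 5 of 20 at an unadjusted p under 0.05, all positive (against 4.30% of all genes). Lrrc32, which encodes GARP, the surface anchor of latent TGF-beta, rose in VAT by 1.56 ± 0.23 (adjusted p = 0.0143). Its levels were 6.06, 5.99 and 8.69 RPKM in VAT WT, 16.1, 29.4 and 22.4 in VAT KO, 30.1 and 45.9 in spleen WT and 45.8 and 37.5 in spleen KO. VAT WT was thus the low group, and the interaction was 1.40 ± 0.36. Izumo1r, the folate receptor 4 of Tregs, had a VAT effect of 1.19 ± 0.25 (adjusted p = 0.0831) and a spleen effect of -0.31 ± 0.31, with 336 RPKM in spleen WT replicate 2 against 215 to 217 in the other spleen libraries. Tigit, an inhibitory receptor, owed its interaction of 0.80 ± 0.26 to spleen, with 64.7 and 68.0 RPKM in WT and 46.6 and 38.1 in KO. Tnfrsf4, the costimulatory receptor OX40, had 0.09 ± 0.12 in VAT and -0.38 ± 0.15 in spleen.

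Type 1 and cytotoxic genes had a median interaction of 0.45, with 9 of 10 above 0, and median effects of 0.41 in VAT and -0.19 in spleen. With single libraries left out, the median interaction ranged from 0.39 to 0.871 and was highest without spleen KO replicate 3. Cxcr3, the receptor of interferon-induced chemokines, stood at 211 and 129 RPKM in spleen WT against 107 and 90.6 in spleen KO, and at 77.8, 149 and 65.4 in VAT WT against 188, 168 and 138 in VAT KO. The spleen groups were apart, the VAT groups overlapped through VAT WT replicate 2, and the interaction was 1.57 ± 0.42. Ccl5, a chemokine of effector T cells, had 58.1, 116 and 55.0 RPKM in VAT WT, in which replicate 2 was again the high library, and an interaction of 1.26 ± 0.46, or 0.81 without spleen WT replicate 2. Il18r1, a subunit of the IL-18 receptor, had 0.79 ± 0.24 in VAT and -0.15 ± 0.30 in spleen, and its interaction of 0.94 was 0.54 without the same library. The summed level of the 10 genes was 699 RPKM in VAT WT replicate 2 and 333 and 317 in VAT WT replicates 1 and 3. The summed level of 7 B cell genes was also high in that library, at 220 RPKM against 101 and 62.8. Without VAT WT replicate 2 the median interaction of the type 1 list was 0.784.

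Interferon response genes had a median interaction of 0.25, with 22 of 30 above 0 and medians of 0.105 in VAT and -0.12 in spleen. Oas1a, an antiviral nucleotide synthetase, had an interaction of 1.00 ± 0.36, whereas Oasl1, a relative at 2.24 RPKM or less, had -1.12 ± 0.42 (-0.74 without spleen WT replicate 2). For MHC class I presentation 16 of 18 genes were above 0, with a median of 0.15, of 0.04 without spleen WT replicate 2 and of 0.22 without replicate 3. Its leading members, Psme2 and Psme1 of the proteasome activator, had spleen WT replicate 2 at 170 and 94.2 RPKM against 97.8 to 108 and 56.7 to 66.2 in the other spleen libraries.

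The lists of KLF factors, of AP-1 and immediate early genes, and of heat shock genes and chaperones gave negative medians. Of 11 KLF factors, 10 had an interaction below 0, with a median of -0.25, a median VAT effect of -0.13 and a median spleen effect of 0.24. Klf16 had 3.94 and 4.64 RPKM in spleen WT against 6.44 and 7.24 in spleen KO, with VAT groups that overlapped. AP-1 and immediate early genes had a median of -0.18, with 14 of 21 below 0, and median effects of -0.24 in VAT and -0.135 in spleen. Without spleen WT replicate 3 the median interaction was -0.34. Their median gap between VAT and spleen was 3.33 log2 units in WT and 3.22 in KO. Fos, the founding AP-1 subunit, had 691, 550 and 611 RPKM in VAT WT and 401, 428 and 412 in VAT KO without overlap, against 1.16 to 5.21 in spleen, with an interaction of -1.10 ± 0.41. It was -0.56 without spleen KO replicate 2 and -0.65 without spleen WT replicate 3. Dusp1, a phosphatase of MAP kinases, had -0.31 ± 0.12 in VAT and 0.15 ± 0.15 in spleen. Dusp2, its relative in lymphocytes, had the opposite pattern, with 0.34 ± 0.14 in VAT and -0.34 ± 0.18 in spleen.

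Heat shock genes and chaperones had a median of -0.32 over 22 genes, with median effects of 0.24 in VAT and 0.575 in spleen. This pattern rested on spleen KO replicate 3. Hspa1b, an inducible HSP70 (Entrez 15511; chromosome 17, 34956429 to 34959238), stood at 0.156 and 1.23 RPKM in spleen WT and at 5.57 and 82.3 in spleen KO, against 230 to 516 in the VAT libraries. Its interaction was -3.42 ± 1.04, and -5.25 without spleen KO replicate 2 (adjusted p = 0.005), when the high library stood alone for its group, and -1.59 without spleen KO replicate 3. Hspa1a, its near-identical neighbour, with which reads may be shared, stood at 2.29 and 26.0 RPKM in spleen KO and at 0.025 and 0.259 in spleen WT. Dnaja1, an HSP40 cochaperone, had 35.0 and 85.0 RPKM in spleen KO against 25.5 and 26.1 in spleen WT. The summed level of the 22 genes was 2370 RPKM in spleen KO replicate 3 against 1030 to 1090 in the other spleen libraries. When single libraries were left out, the list's median ranged from -0.93 to 0.17, so its sign was not stable.

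**Figure D3:**
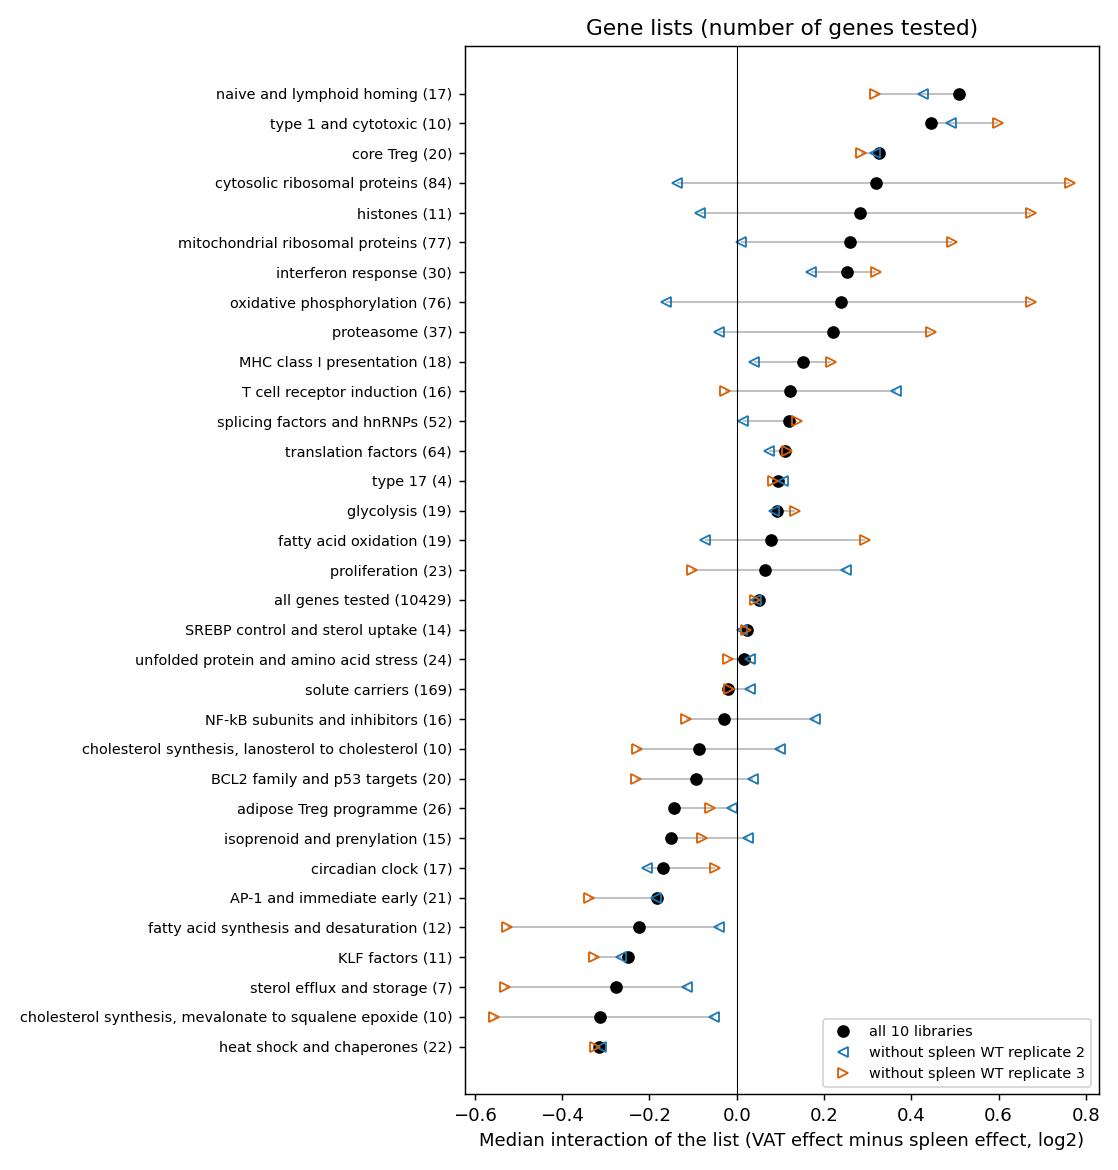
Median interaction of each list with at least 3 tested members (number tested in brackets), with all 10 libraries (black) and without spleen WT replicate 2 (blue) or replicate 3 (orange). The naive, type 1 and core Treg lists stayed above 0 in all 3 cases and KLF and heat shock genes below 0, while cytosolic ribosomal proteins went from 0.32 to -0.14 and 0.76.

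Families of housekeeping machinery were shifted in most members, and the shift depended on 1 library. Of 84 cytosolic ribosomal protein genes, 82 had an interaction above 0, with a median of 0.32, yet without spleen WT replicate 2 only 9 of 84 did and the median was -0.14. Without spleen WT replicate 3 the median was 0.76. Their summed level was 15300 RPKM in spleen WT replicate 2, against 8220 in replicate 3, 9100 and 10400 in spleen KO and 5400 to 7580 in VAT. Oxidative phosphorylation gave 73 of 76 above 0 and a median of 0.24, which was -0.16 without that library, with a summed level of 6900 RPKM there against 3920 to 4410 in the other spleen libraries. Mitochondrial ribosomal proteins had a median of 0.26 over 77 genes, of 0.01 without spleen WT replicate 2, and proteasome subunits 0.22 over 37 genes, of -0.04 without it. Rpl6 was at 99.8 RPKM in spleen WT replicate 2 and at 56.8 to 63.7 in the other spleen libraries, and Ndufs8, a complex I subunit, at 85.5 against 36.1 to 42.4. Mrps2, of the small mitochondrial ribosomal subunit, was an exception in this respect, with 8.04 and 7.46 RPKM in spleen WT against 6.09 and 4.26 in spleen KO and an interaction of 0.86 ± 0.28. Many ribosomal protein genes have processed copies in the genome, so their levels carry the uncertainty of the authors' counting.

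**Figure D4:**
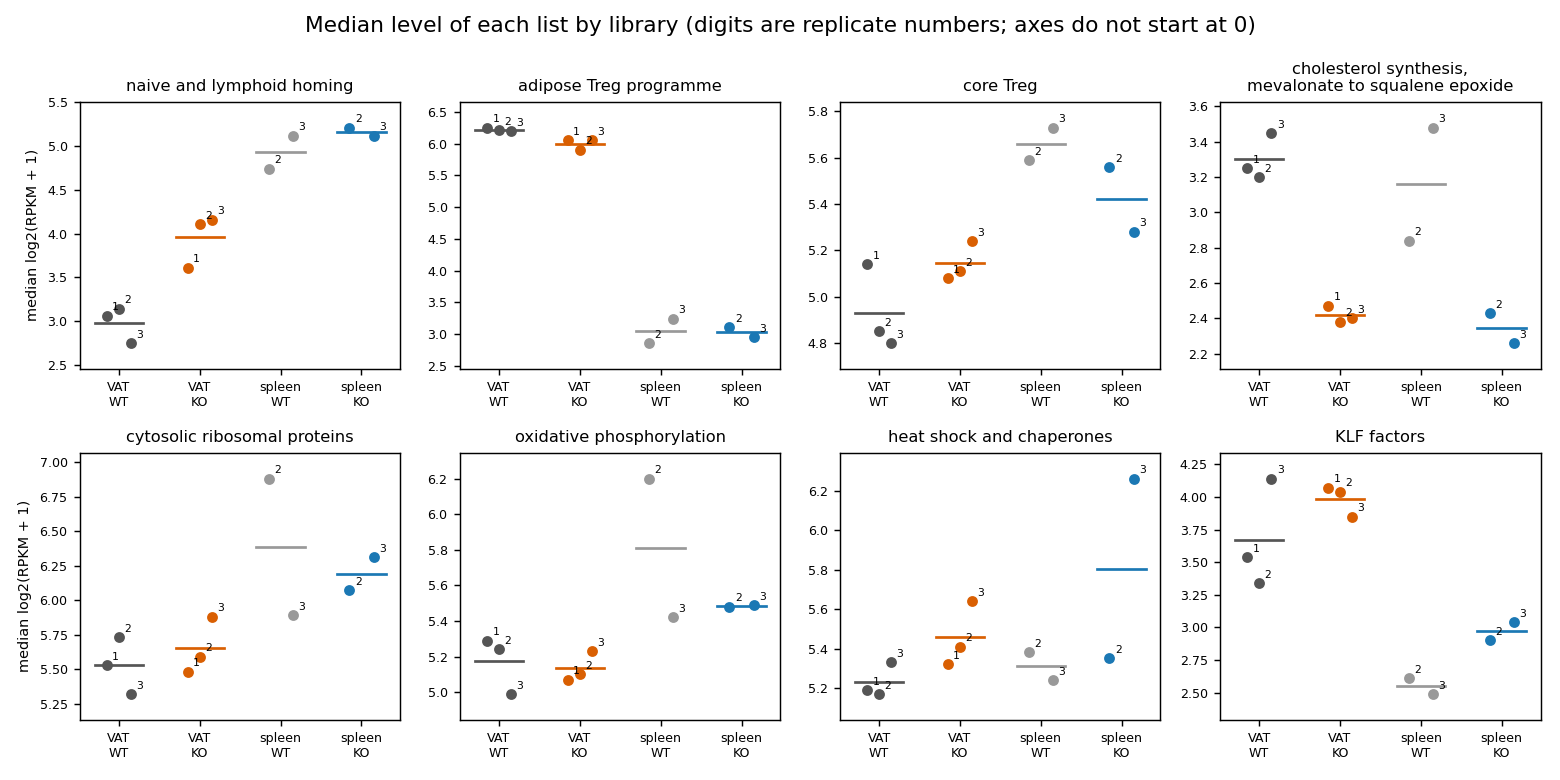
Median log2(RPKM + 1) over the members of 8 lists in each library, with digits for replicate numbers, lines at the group means and axes that do not start at 0. Naive genes stand higher in VAT KO than in VAT WT, the sterol list lower in KO in both tissues, ribosomal and oxidative phosphorylation genes high in spleen WT replicate 2, and heat shock genes high in spleen KO replicate 3.

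Markers of other cell types were measured beside these families. Of 12 B cell markers, 7 were in the table, all with an interaction below 0 (median -0.52), and their summed level was 62.8 to 220 RPKM in VAT WT, 60.1 to 119 in VAT KO, 104 and 132 in spleen WT and 99.5 and 134 in spleen KO. Of 16 myeloid markers, 5 were in the table. Their sum of 74.8 to 91.4 RPKM in VAT WT, 77.0 to 109 in VAT KO, 298 and 215 in spleen WT and 222 and 222 in spleen KO was mostly Ctss and Cst3. Ctss, the lysosomal protease cathepsin S, rose in VAT by 1.31 ± 0.25 (adjusted p = 0.0449), from 12.9, 13.9 and 11.8 to 19.8, 44.9 and 41.3 RPKM, and its interaction was 1.47 ± 0.39. Cst3 did not rise with it: it stood at 77.4, 73.5 and 62.5 RPKM in VAT WT against 56.8, 55.1 and 63.9 in VAT KO. Fcer1g was low and mixed, at 1.01, 0.923 and 0.417 RPKM in VAT WT against 0.254, 0.160 and 3.95 in VAT KO. Csf1r, the receptor that defines macrophages, was at 0.828 RPKM or less in every library, and Adgre1 (F4/80) at 1.45 RPKM or less. Of 9 neutrophil markers only Mmp9 was in the table, at 112 to 217 RPKM in VAT and 4.93 or less in spleen. None of 9 red cell markers was in the table. Of 11 markers of stroma and endothelium, 2 were present, and Pecam1, an adhesion molecule of endothelium and leukocytes, stood at 5.12, 4.39 and 7.37 RPKM in VAT WT against 8.80, 11.8 and 10.7 in VAT KO. It was higher in VAT KO without overlap, by 0.80 ± 0.27 (adjusted p = 0.435), while its spleen groups of 15.9 and 31.4 in WT and 34.9 and 19.3 in KO overlapped. Col4a1, the other, was at 1.25 RPKM or less. Among 8 markers of cytotoxic, NK and other unconventional lymphocytes, 2 were present, Cd8a and Cd8b1, with sums of 4.93 to 18.4 RPKM in VAT WT and 7.88 to 11.6 in VAT KO, and the groups of both tissues overlapped. Of 12 adipocyte markers, Lipe and Pnpla2 were present, with sums of 13.1 to 14.6 RPKM in VAT WT and 13.4 to 17.6 in VAT KO. The part of these cell types in the families above was not tested.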

How the data were processed

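Bulk RNA sequencing measured the RNA of sorted Tregs. The submitters' processing notes name STAR and mm10, while how reads were counted, the gene models and the filters were not stated. Per the file headers, the authors deposited RPKM in 1 table. RPKM are not counts, so read depth is unknown and no count model was used. Per the labels' protocols, the library kit was Nextera XT, which does not mark strand, so overlapping antisense genes cannot be told apart.

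Groups came from the labels, and 10 of 11 samples had a matching column. The design had allowed for all matching columns. One further value column matched no sample and was not used (1 column). Entrez identifiers matched RefSeq on GRCm38.p6 (mm10) for 10987 of 10992 genes, 15 symbols turned into dates were restored, and 128 values were listed at 0. Coordinates count from 1.

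limma 3.58.1 in R 4.3.3 was fitted to log2(RPKM + 1), a pseudocount of 1, with 4 group means, trend on, and 6 residual and 6.44 prior degrees of freedom. Tests were two-sided, with calls at a Benjamini-Hochberg adjusted p under 0.05. The fit was tested on 20 simulated tables. Named genes are Srebf2 and Foxp3, the 10 of smallest p per direction with a group mean of at least 5 RPKM, the 6 largest of opposite response per direction, and 2 to 4 of smallest p in each of the 40 lists that is described. Some genes that this rule names are not reported here. The members, lists and named genes were chosen with earlier results of these data known. Each library was left out in turn, and other pseudocounts (0.1 and 5), filters (none, or a mean of 5 RPKM), scalings (quantile, median ratio), array weights, a robust variance and a replicate block were tried.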

Additional observations from a re-analysis of the deposited data

How the results depend on the processing

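The limits lie in the few spleen libraries, the unknown read depth and the wide spread of spleen WT. Of 1742 interaction values for 88 genes named here or in the same lists under 20 alternatives, 1688 kept direction and stayed uncalled, 53 became called, 49 of them without spleen WT replicate 3, and 1 changed sign. That was Foxp3 (0.044 without spleen WT replicate 2), which ranged from -0.238 to 0.044 with single libraries left out. Of 35 lists, 17 had a median that changed sign under some alternative, 10 of them without spleen WT replicate 2.

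The interaction gave 2 called genes with a pseudocount of 0.1, and leaving out single libraries gave 0 to 514, the highest without spleen WT replicate 3. KO against WT in VAT gave 20 genes with a pseudocount of 5 and 83 with array weights, and leaving out single libraries gave 2 to 59. These included 27 without VAT WT replicate 3 and 19 without either spleen KO library. In spleen a pseudocount of 0.1 gave 2 genes, and leaving out single libraries gave 0 to 1395, including 13 without spleen KO replicate 2. With a filter at a mean of 5 RPKM, genes of opposite response numbered 80 (VAT higher) and 56 (VAT lower). Leaving out single libraries, where fewer values have to be apart, gave 211 to 337 and 127 to 250. The cause of the other changes was not tested.

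Whether replicate numbers pair the samples could not be decided. Deviations of same-numbered libraries correlated at -0.147 to 0.184 over 13 pairs that mix genotypes and tissues, and those of other numbers at -0.184 to 0.22 over 24. Same-numbered VAT and spleen libraries of the same genotype gave 0.092 and 0.184 in WT and 0.003 and 0.046 in KO. The deviations of the 2 libraries of a spleen group mirror each other by construction, so these ranges cannot exclude pairing. With the replicate number as an additive block 0 genes were called for the interaction, 39 in VAT, and with the number within genotype 0 for the interaction.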

Other observations

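Regulators of NF-kB and of survival had unlike responses within a family. Relb, a subunit of the alternative NF-kB pathway, stood at 6.06, 9.46 and 11.3 RPKM in VAT WT and 14.5, 12.9 and 12.8 in VAT KO, and at 26.7 and 25.8 in spleen WT and 17.4 and 15.4 in spleen KO. The groups were apart in opposite directions, and the interaction was 1.22 ± 0.31 (limma adjusted p = 0.534). Nfkbid, a nuclear IkB protein, had -0.30 ± 0.18 in VAT and 0.59 ± 0.22 in spleen. Over 16 genes of NF-kB the median interaction was -0.03. Bcl2, which blocks apoptosis, had 9.12, 12.6 and 9.71 RPKM in VAT WT and 17.3, 18.9 and 18.7 in VAT KO (limma adjusted p = 0.052), against 46.1 to 53.7 in all spleen libraries. Fas, the death receptor, had 0.86 ± 0.19 in VAT and 0.07 ± 0.23 in spleen. Bik, a BH3-only protein that promotes apoptosis, had 0.029 and 1.01 RPKM in spleen WT against 2.36 and 3.34 in spleen KO, with VAT groups that overlapped between 3.52 and 6.11.

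Metabolic genes gave a few single members with gaps between tissues. Etfa, which passes electrons from fatty acid oxidation to the respiratory chain, stood at 64.7 and 48.0 RPKM in spleen WT and 37.4 and 32.4 in spleen KO, and at 33.3, 36.0 and 32.8 in VAT WT and 37.6, 38.0 and 36.8 in VAT KO. Its interaction was 0.80 ± 0.22. Cpt1a, which admits long-chain fatty acids to mitochondria, had 6.29 and 9.42 RPKM in spleen WT against 12.9 and 15.5 in spleen KO, with a VAT effect of 0.20 ± 0.16. The 19 genes of fatty acid oxidation had a median interaction of 0.08. Among 169 solute carriers (median -0.02), Slc7a10, an amino acid transporter, had 13.1 and 7.77 RPKM in spleen WT, 4.66 and 2.12 in spleen KO and 0.424 or less in VAT. Dolk, the dolichol kinase of the isoprenoid branch, had 21.4 and 15.7 RPKM in spleen WT against 7.63 and 11.1 in spleen KO, and an interaction of 1.04 ± 0.35. None of these genes passed the interaction test.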
